A study of Arabidopsis thaliana with 15 samples.

Results

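The genes described here encode proteins of the large (60S) subunit of the cytosolic ribosome in Arabidopsis thaliana, ecotype Col-0. They are 49 of the 33323 genes listed for each library and were taken as a fixed set of locus identifiers: the genes of 20 ribosomal proteins, namely P0, L3, L4, L5, L7A, L8, L9, L10, L11, L13A, L18, L23A, L24, L26, L27A, L28, L30, L37A, L39 and L41. The set is given by locus names and applies no threshold to measured values, but it was put together with earlier results of these data known. L41 is represented by 1 gene, 11 of the proteins by 2 genes, 6 by 3 genes, and L11 and L13A by 4 genes each.

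Wild-type seedlings were stratified for 4 days and grown on plates in darkness for 4 days at 22 °C (Dark). One set was then moved for 4 h into white light of 100 µmol m-2 s-1 (L4h), and another was kept dark for the same 4 h (D4h). RNA came from the aerial part of the seedlings. All 3 treatments were sequenced as total RNA. Polysome-bound RNA was sequenced for Dark and L4h. Each of these 5 groups had 3 libraries. All groups share the same genotype and the same dark growth. Nothing in the labels says whether the 3 libraries of a group came from separate plates, so every p-value measures the spread between libraries, which may be technical.

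A plant ribosome carries 1 copy of most ribosomal proteins, yet nearly every one of these proteins is encoded by several paralogous genes whose products can replace each other in the subunit. Ribosomes that translate 1 mRNA together form a polysome, so the amount of an mRNA in polysome-bound RNA relative to total RNA is used as a measure of how much of it is being translated. Seedlings that meet light after growth in darkness open their cotyledons and build chloroplasts, a change that is known to come with a rise in protein synthesis.

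The members range from some of the longest to the shortest ribosomal protein messages, and the results below turn on that range. The coding sequences of L41 and of the L39 genes, the shortest of the set, are shown for that reason, with the start and stop codons in capitals, as read from the RefSeq annotation of assembly TAIR10.1. L41 is a basic peptide of 25 residues that bridges the subunits in yeast, and L39 lines the exit tunnel through which the new protein leaves the ribosome.
AT2G40205 (L41, gene at chr2:16792175-16792622, minus strand): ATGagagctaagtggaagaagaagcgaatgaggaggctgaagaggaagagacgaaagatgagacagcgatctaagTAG
AT4G31985 (L39, gene at chr4:15469841-15470733, plus strand): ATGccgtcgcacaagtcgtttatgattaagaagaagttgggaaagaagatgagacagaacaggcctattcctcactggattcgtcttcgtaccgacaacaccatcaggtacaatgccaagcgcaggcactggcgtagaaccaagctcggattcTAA
AT2G25210 (L39, gene at chr2:10739855-10740552, plus strand): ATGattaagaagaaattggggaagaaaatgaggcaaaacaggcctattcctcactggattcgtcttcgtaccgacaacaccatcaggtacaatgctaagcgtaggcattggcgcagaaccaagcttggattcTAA
AT3G02190 (L39, gene at chr3:405756-406487, minus strand): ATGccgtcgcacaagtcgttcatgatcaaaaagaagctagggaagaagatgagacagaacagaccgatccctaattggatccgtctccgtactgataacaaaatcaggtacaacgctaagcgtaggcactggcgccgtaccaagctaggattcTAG
The coding sequence of L41 spans 78 bases and those of the L39 genes 156, 135 and 156 bases, in the order shown. Each was read from the longest annotated mRNA of its gene, which need not be the main one. That of AT2G25210 begins where the other L39 genes have an internal ATG. L3, at the other end, is encoded by 1170 bases in AT1G43170 and 1173 bases in AT1G61580.

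Ribosomal protein genes of plants often carry 2 short promoter elements, the telo box and site II. The stretches of 150 bases before the annotated start are shown for 2 L13A genes and 1 P0 gene, because AT4G13170 and AT2G40010 had the most positive and the most negative light difference of the members in total RNA. Of these differences, that of AT2G40010 passed the test and that of AT4G13170 did not. AT3G24830, the L13A gene with the highest level, is given for comparison. Capitals mark the telo box, AAACCCTA, and site II, TGGGCC or TGGGCT, on either strand.
AT3G24830 (L13A, chr3:9064375-9064524, plus strand): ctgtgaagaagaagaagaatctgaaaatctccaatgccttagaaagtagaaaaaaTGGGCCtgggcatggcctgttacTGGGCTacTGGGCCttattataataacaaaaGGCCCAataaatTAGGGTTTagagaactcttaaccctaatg
AT4G13170 (L13A, chr4:7656595-7656744, minus strand): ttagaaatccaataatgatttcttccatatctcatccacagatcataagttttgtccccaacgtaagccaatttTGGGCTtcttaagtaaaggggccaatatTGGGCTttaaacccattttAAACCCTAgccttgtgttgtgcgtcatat
AT2G40010 (P0, chr2:16710773-16710922, minus strand): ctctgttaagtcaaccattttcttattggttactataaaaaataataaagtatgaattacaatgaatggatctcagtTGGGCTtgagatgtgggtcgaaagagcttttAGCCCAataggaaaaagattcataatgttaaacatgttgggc
Both L13A genes hold a telo box whose first base, on the strand shown, lies 29 bases before the start, with site II matches upstream of it. The P0 stretch holds 2 site II matches and no telo box in these letters. In a window from 250 bases before to 50 bases after the start, a telo box was found in 28 of the 49 members (57.1%) and in 6.22% of the promoters of 27443 protein-coding genes. A site II of either kind was found in 40 members (81.6%) and in 21.7% of all promoters. The 21 members with both elements are 42.9% of the set, against 2.2% of all promoters, and none of the 19 plastid 50S genes listed for comparison held both. The genes of other 60S proteins (41.3% with both) and of 40S proteins (44.7%) had shares near that of the members. These are matches of letters and say nothing of binding.

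Between 60.8 M and 100.9 M reads per library fell on listed genes. The members took 0.322% to 0.425% of them in the 6 total RNA libraries of Dark and L4h and 0.607% to 1.093% in the polysome-bound libraries. Several libraries stood apart from the others of their group. In D4h replicate 1 the members took 0.682% of the reads, against 0.351% and 0.348% in replicates 2 and 3. This library also held 132 CPM (counts scaled to library size by TMM over all 15 libraries) of the light-induced flavonoid gene CHS, where the other D4h libraries held 8.04 and 8.68 CPM. The light-repressed gene PORA was also higher there, at 1741 CPM against 228 and 219, while PIL1 had 42.1 CPM against 52.4 and 56.6 and ATHB2 63.4 CPM against 90.9 and 88.4. The median gene differed by 0.068 log2 units between D4h replicates 2 and 3, and by 0.14 to 0.61 between any other libraries of the same group, so these replicates may not be independent samples. Replicate 1 of L4h polysome-bound RNA lay 1.13 log2 units above the mean of the other 2 libraries at the median member, and replicate 1 of Dark polysome-bound RNA 0.36 units above. Of 11 shoot markers, 9 were highest in replicate 1 in Dark polysome-bound RNA, 8 in L4h polysome-bound RNA, 7 in D4h and 6 in L4h total RNA, but also 9 in Dark total RNA, where replicate 1 lay 0.17 log2 units below the others at the median member. The young-leaf gene FIL was among those that were high, with 44.5 CPM in Dark polysome replicate 1 against 8.10 and 5.51 and 20.5 CPM in Dark total replicate 1 against 6.39 and 5.21. The epidermal gene ML1 went the other way, with 36.4 CPM against 78.7 and 87.8 in Dark polysome-bound RNA and 124 CPM against 155 and 151 in D4h. The summed level of all 11 shoot markers was 842 to 1072 CPM in total RNA of Dark and L4h, 779 to 950.4 CPM in D4h and 624 to 839 CPM in polysome-bound RNA. The part of any of these in the results was not tested. The 6 root-hair genes summed to 0.437 to 6.12 CPM and the nitrate transporter gene NRT2.1 was at or near 0. In these bulk samples, fewer cells of a type and less RNA per cell cannot be told apart.

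**Figure D1:**
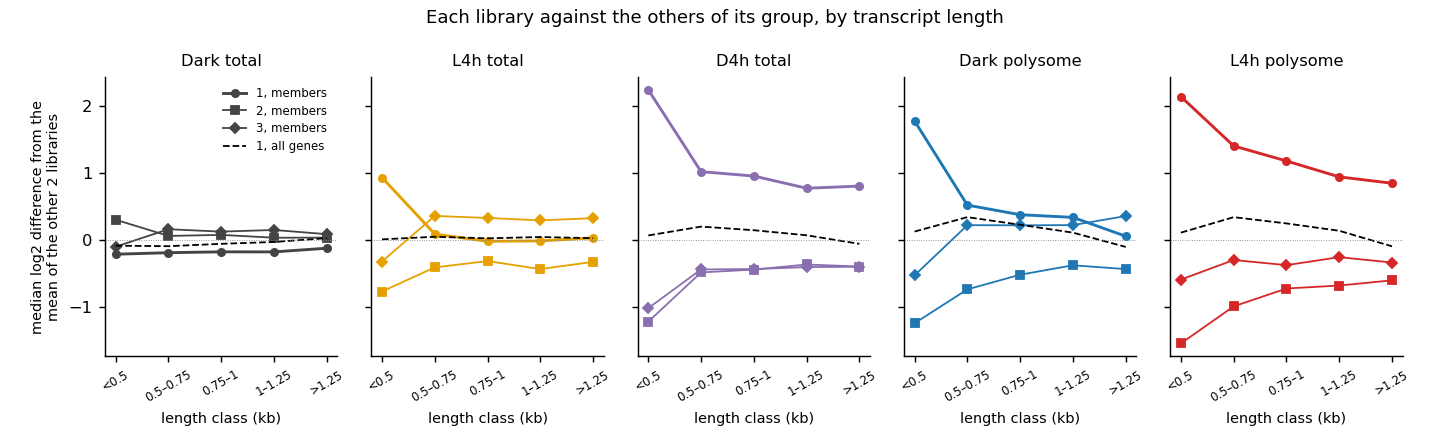
Median difference of each library from the mean of the other 2 libraries of its group (log2 CPM, y axis) in 5 classes of deposited transcript length (x axis), for the 46 tested members (coloured lines, 1 symbol per replicate number) and, for replicate 1, all genes (dashed). D4h replicate 1 and L4h polysome replicate 1 lie above the others in every class, by 2.25 and 2.14 units in the members under 0.5 kb.

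The difference between libraries was largest for the shortest members. In the class under 0.5 kb (4 genes) replicate 1 was 2.25 log2 units higher in D4h, 1.78 higher in Dark polysome-bound RNA, 2.14 higher in L4h polysome-bound RNA and 0.93 higher in L4h total RNA. In Dark total RNA it was 0.21 lower. The same differences in the 8 longest members (1.259 to 1.601 kb) were 0.81, 0.05, 0.85, 0.03 and −0.12. Over all genes under 0.5 kb the differences of replicate 1 ran from −0.09 to 0.12. Over all genes of 0.5 to 0.75 kb they were 0.34 in Dark and in L4h polysome-bound RNA and 0.20 in D4h. In L4h and Dark total RNA they were 0.05 and −0.09. Over all genes the difference fell with length in D4h (Spearman's rho −0.183) and in Dark and L4h polysome-bound RNA (−0.246 and −0.268). The short members L41, AT4G31985 and AT2G25210 have the largest SEs of the polysome ratio among all 46.

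The most abundant of the 20 proteins at the mRNA level in Dark total RNA was L10, whose genes summed to 340.3 ± 10.99 RPKM (reads scaled to library size and gene length, the authors' values; SD, n = 3). L18 followed with 272 ± 39.4 RPKM and L27A with 229.6 ± 25.9 RPKM. The order of L27A, L5 (220.5 ± 28.4 RPKM) and L3 (217 ± 43.1 RPKM) lies within their spread. The low end was held by L23A at 94.7 ± 13.8 RPKM, L39 at 85.4 ± 12.3 RPKM and L41 at 9.32 ± 4.58 RPKM. L41 was divided by a deposited length of 0.116 kb, where RefSeq annotates an mRNA of 349 bases, so its RPKM level depends on that length. The level of L23A likewise depends on the 1.559 kb deposited for AT2G39460, whose paralog AT3G55280 has 0.777 kb. In Dark polysome-bound RNA the order was different: L18 (817 ± 68.4 RPKM) and L10 (802 ± 144 RPKM) led, and L3 (197 ± 31.8 RPKM), P0 (195 ± 18.98 RPKM) and L41 (101 ± 112 RPKM) had the lowest values.

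Within a protein the genes contributed unequally. Of the 19 proteins with more than 1 gene, the leading gene held over 75% of the summed RPKM in 5 and under 60% in 9, with a median share of 60.1%. That median is the share of L23A gene AT2G39460, which held 75.1% of the L23A counts before division by length. The most uneven was L37A, for which AT3G60245 held all of the RPKM, since no read fell on AT3G10950 in any of the 15 libraries (a count of 0 allows up to 0.00241 CPM over all libraries). L30 gene AT1G36240 received 2 reads in 1 library, and L8 gene AT3G51190 received 35 reads spread over 11 libraries. These 3 genes failed the filter on low counts, which left 46 members for testing. L3, a core protein that reaches the peptidyl transferase centre, was likewise supplied by 1 main gene, AT1G43170, at 91.4% of its RPKM. P0, the base of the stalk that receives translation factors, was supplied by AT3G09200 at 85.6%, AT3G11250 at 11.6% and AT2G40010 at 2.76%. At the other end, the L7A genes AT3G62870 and AT2G47610 held 55.1% and 44.9%, the L4 genes AT5G02870 and AT3G09630 53.0% and 47.0%, and the L27A genes AT1G70600 and AT1G23290 52.6% and 47.4%.

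**Figure D2:**
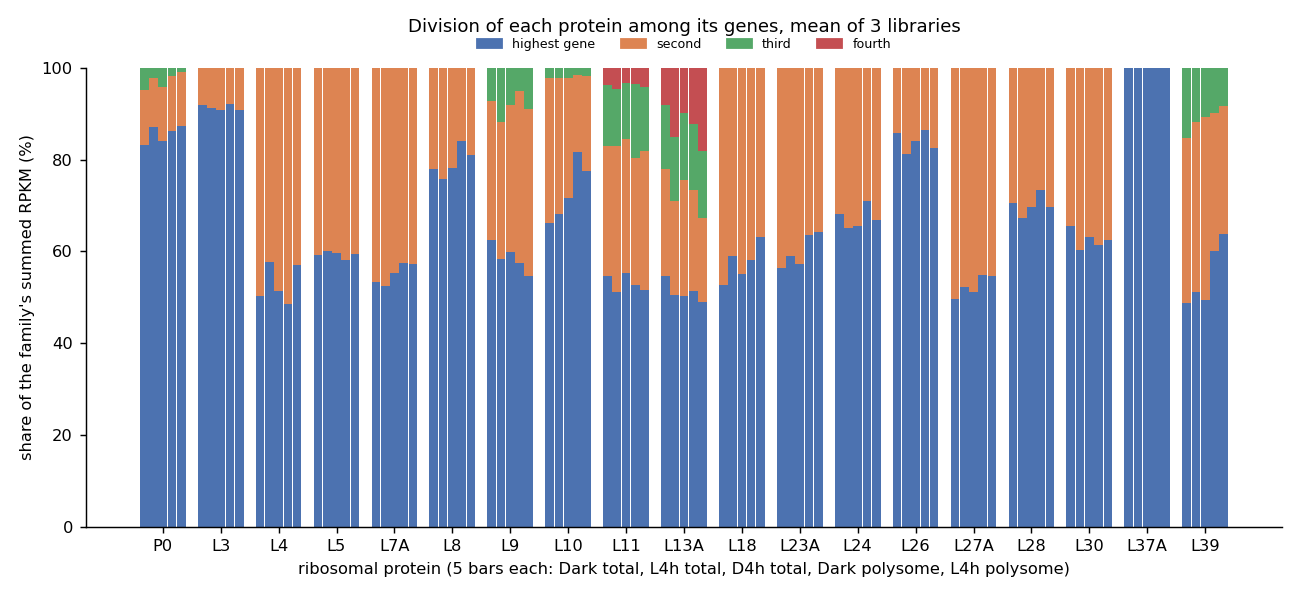
Share of each ribosomal protein's summed RPKM (%, y axis) held by each of its genes, ordered by level, as the mean of 3 libraries in each of the 5 groups (5 bars per protein, x axis). P0, L3 and L37A rest mainly on 1 gene, whereas L4, L7A and L27A are divided almost evenly.

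Reads of some members cannot be assigned with certainty. The L9 genes AT1G33120 and AT1G33140 share 53.4% and 54.2% of their 50-base stretches. AT1G23290 (L27A) shares 98.2% of its transcript with AT1G23300 on the opposite strand in the RefSeq annotation. AT4G13170 (L13A) shares 51.1% with AT4G13160, AT2G40205 (L41) 51.0% with AT2G40200 and AT2G40010 (P0) 42.0% with AT2G40008, all on opposite strands. These shares refer to the longest RefSeq mRNA of each gene, which can differ from the counted transcript. AT4G13170 has 2212 bases there against 0.862 kb deposited, and L41 has 349 bases against 0.116 kb. The part of the counted reads that falls on shared stretches is therefore not known. The strand of the libraries is not given in the sources used here, so reads from such a stretch cannot be told apart.

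Most tested members were higher in polysome-bound than in total RNA, and the ratio was larger for shorter messages. The comparison asks which mRNAs are carried by ribosomes out of proportion to their amount. The ratio is relative to other mRNAs, since each library is scaled to the bulk of its genes. In Dark, 31 of the 46 tested members were higher in polysome-bound RNA and 1 was lower (quasi-likelihood test of edgeR, adjusted p under 0.05 by Benjamini-Hochberg), with a median of 1.35 log2 units. Over all 21924 genes tested, 10.6% were higher and 9.34% lower, with a median of 0.00. In L4h, 34 members were higher and 0 lower, with a median of 1.48, against 11.7% higher and 9.15% lower over all genes. For L4h, 41 members and 7525 genes had an unadjusted p under 0.05 in edgeR. DESeq2 called 37 members higher and 1 lower, against 3287 and 2847 of all genes. Genes within the members' range of length (11937 genes) were called higher in 18.6% of cases in Dark, with a median of 0.42, and in 20.7% in L4h, with a median of 0.49. The members called higher in both conditions numbered 30.

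The counts of calls depend on single libraries. In Dark, 16, 15 and 17 members were higher without total RNA replicate 1, 2 or 3, and 18, 33 and 19 without polysome-bound replicate 1, 2 or 3. The same fits called 1446, 1250, 1385, 1510, 2380 and 1771 of all genes higher, in that order, against 2323 with all libraries. In L4h, 15 were higher without total RNA replicate 2 and 20 without polysome-bound replicate 1, and the other 4 such fits gave 23 to 36. Of all genes, 1413 were higher in L4h without total RNA replicate 2 and 1610 without polysome-bound replicate 1. The other 4 fits gave 1486 to 2289, against 2566 with all libraries. In both conditions the same 15 members kept their call in every fit with 1 library left out. The share of all genes that did so is not given here. With replicate number as a block, 39 members were higher and 1 lower in Dark, against 16.7% and 15.7% of all genes. In L4h, 38 were higher and AT2G40010 was lower, against 17.6% and 15.3%. The medians without the libraries numbered 1 were 1.19 in Dark and 1.02 in L4h, and the L4h median was 0.88 without polysome-bound replicate 1 alone. Single polysome-bound libraries set against the mean of total RNA gave member medians of 1.55, 0.95 and 1.41 in Dark and 2.15, 0.81 and 1.03 in L4h, each with 43 to 45 of the 46 members above 0.

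**Figure D3:**
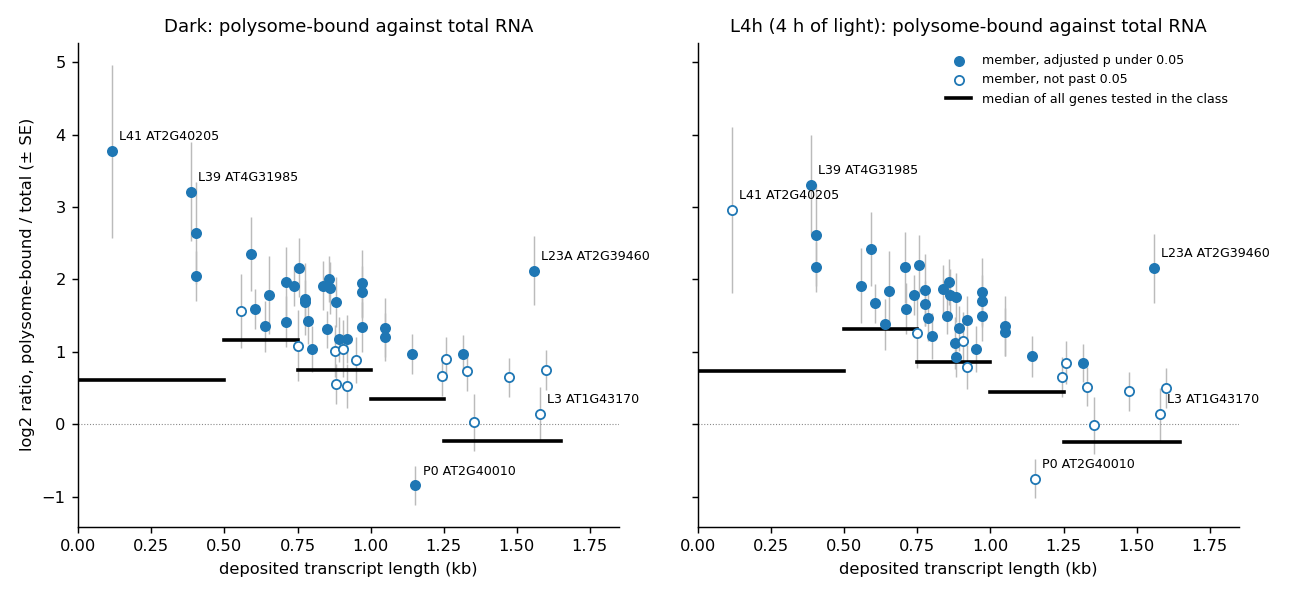
Log2 ratio of polysome-bound to total RNA (± SE, y axis) against deposited transcript length in kb (x axis) for the 46 tested members in Dark (left) and L4h (right). Filled circles passed an adjusted p of 0.05, and black bars give the median of all genes tested in 5 length classes. The ratio falls from above 2 for L39 genes to about 0 for L3 genes, with L23A gene AT2G39460 and P0 gene AT2G40010 away from the others.

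Across the members the ratio fell with deposited length, with Spearman's rho −0.68 in Dark and −0.75 in L4h (46 genes; a description across genes that share the same libraries). All genes tested gave −0.58 and −0.66, so the direction is general to the libraries. Inside each length class the median of the members was nevertheless above that of all genes. Members under 0.5 kb (4 genes) had a median of 2.93 log2 units in Dark against 0.62 for 768 genes of that class. The medians were 1.69 against 1.16 at 0.5 to 0.75 kb (8 members), 1.34 against 0.74 at 0.75 to 1 kb (21 members), 0.97 against 0.35 in the next class (5 members, 1.048 to 1.243 kb) and 0.74 against −0.24 in the longest (8 members). In L4h the members' medians were 2.785, 1.815, 1.496, 0.94 and 0.51 in the same order.

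L41 and the L39 genes AT4G31985 and AT2G25210 had the largest ratios in the fits of all libraries, while the third L39 gene, AT3G02190, lay below L37A gene AT3G60245 and L28 gene AT2G19730. L41 gene AT2G40205 had 0.705, 1.55 and 0.767 CPM in the Dark total libraries and 32.4, 3.56 and 5.66 CPM in the Dark polysome-bound ones. The polysome-bound libraries were all above the total ones, with replicate 1 far above the other 2. The log2 ratio was 3.77 ± 1.19 (SE; edgeR adjusted p = 0.0461) in Dark and 2.96 ± 1.15 (adjusted p = 0.0915) in L4h, where the levels were 4.05, 0.801 and 0.947 CPM in total and 38.1, 2.65 and 4.34 CPM in polysome-bound RNA, and replicate 2 of the latter lay below replicate 1 of the former. L39 gene AT4G31985 had 15.01, 16.05 and 13.85 CPM in Dark total RNA and 257, 59.8 and 99.5 CPM in polysome-bound RNA. The polysome-bound libraries all lay above the total ones, and the ratio was 3.21 ± 0.68 (adjusted p = 0.00979). In L4h it was 3.30 ± 0.69 (adjusted p = 0.00785). The L39 genes AT2G25210 and AT3G02190 reached 2.64 ± 0.71 (adjusted p = 0.0239) and 2.05 ± 0.35 (adjusted p = 0.00422) in Dark by the same edgeR test.

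The share of L39 made up by AT4G31985 was also higher in polysome-bound RNA. It was 54.6%, 46.6% and 45.3% of the L39 RPKM in Dark total RNA and 61.2%, 55.9% and 63.0% in Dark polysome-bound RNA. The groups did not overlap, and an exact two-sided permutation test gave p = 0.1 (adjusted p = 0.16), the smallest that 3 against 3 libraries allow. Shares of 4 genes were compared in this way, each in 4 comparisons (16 tests, chosen after their values were seen), and none could pass 0.05.

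Members of intermediate length had intermediate median ratios in Dark but spread widely. The ratios ran from 1.35 to 2.35 at 0.5 to 0.75 kb and from 0.52 to 2.16 at 0.75 to 1 kb. Each gene named in this paragraph lay above the Dark median of its class. L37A, a zinc-binding protein, was represented by AT3G60245 (0.592 kb) with a ratio of 2.35 ± 0.51 (edgeR adjusted p = 0.0102) in Dark and 2.42 ± 0.51 (adjusted p = 0.00811) in L4h. Its levels were 41.7, 73.2 and 86.1 CPM in Dark total RNA and 475, 217 and 335 CPM in Dark polysome-bound RNA, with no overlap. The L28 genes AT2G19730 and AT4G29410 reached 2.16 ± 0.41 and 1.97 ± 0.48 in Dark and 2.20 ± 0.41 and 2.17 ± 0.49 in L4h, all past the threshold. L24, which bridges to the small subunit, is encoded by AT3G53020 (STV1), needed in Arabidopsis for translation of messages with upstream reading frames, and by AT2G36620. Their ratios were 1.91 ± 0.34 and 1.68 ± 0.31 in Dark. The L18 gene AT3G05590 had 2.00 ± 0.32 and the L8 gene AT2G18020 1.94 ± 0.46 (edgeR adjusted p = 0.00354 and 0.0148).

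L23A, which sits at the mouth of the exit tunnel, departed from the trend. AT2G39460 has a deposited length of 1.559 kb, the third longest of the set, yet its ratio was 2.12 ± 0.48 (edgeR adjusted p = 0.012) in Dark and 2.15 ± 0.48 (adjusted p = 0.0102) in L4h. The levels were 66.0, 81.1 and 87.5 CPM in Dark total RNA and 496, 224 and 303 CPM in Dark polysome-bound RNA, again with no overlap. Its paralog AT3G55280, with 0.777 kb, had a ratio of 1.73 ± 0.50. Both encode 465 coding bases. With RefSeq coding length in place of deposited length, a choice made after the data were seen, rho over the 46 members was −0.79 in Dark and −0.84 in L4h. Coding length was read from the longest mRNA of each gene, which gives 405 bases for L18 gene AT3G05590 and 564 for AT5G27850.

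The L3 genes, among the longest messages, had ratios near 0. L3 gene AT1G43170 had 388, 248 and 259 CPM in Dark total RNA and 419, 226 and 342 CPM in Dark polysome-bound RNA. These libraries overlapped, and the ratio was 0.14 ± 0.37 (edgeR adjusted p = 0.824). In L4h it was 0.14 ± 0.37 (adjusted p = 0.827). The second L3 gene, AT1G61580, had 0.03 ± 0.40 in Dark and −0.01 ± 0.40 in L4h. L4, which lines the exit tunnel, gave 0.75 ± 0.28 for AT3G09630, the longest member, and 0.65 ± 0.27 for AT5G02870 in Dark, neither past the threshold (adjusted p = 0.0794 and 0.114). L5 binds the 5S rRNA together with L11. The L5 genes AT3G25520 and AT5G39740 had ratios of 0.91 ± 0.30 (adjusted p = 0.0518) and 0.97 ± 0.26 (adjusted p = 0.0248), and the 4 L11 genes ranged from 1.04 to 1.43.

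In Dark, paralogs differed most in P0, L10 and L39. Across the genes of a protein the Dark ratio spanned 1.58 log2 units in P0, 1.28 in L10 and 1.16 in L39, against 0.06 to 0.82 in the other proteins with more than 1 tested gene. In L4h the spans were 1.41, 0.78 and 1.13, and that of L9 was 0.71. L10 joins the subunit late, in the cytoplasm. Its main gene AT1G14320 (SAC52) had a Dark ratio of 1.83 ± 0.36 (edgeR adjusted p = 0.00716) and AT1G66580 (SAG24) 0.55 ± 0.28 (adjusted p = 0.186), although their deposited lengths are 0.972 and 0.882 kb. In L4h the ratio of AT1G66580 was 0.93 ± 0.28 and passed (edgeR adjusted p = 0.0371), and that of AT1G14320 was 1.71 ± 0.36. AT1G66580 held 37.9%, 29.5% and 27.8% of the L10 RPKM in Dark total RNA and 15.5%, 19.3% and 15.4% in Dark polysome-bound RNA. In L4h it held 34.2%, 29.3% and 25.1% of total and 18.1%, 23.9% and 20.1% of polysome-bound RNA. The groups overlapped in neither condition (exact permutation p = 0.1, adjusted p = 0.16 in each).

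AT2G40010, the least abundant P0 gene, was the single member lower in polysome-bound RNA. It had 6.61, 7.78 and 8.04 CPM in Dark total RNA and 5.20, 3.74 and 3.56 CPM in Dark polysome-bound RNA. The groups did not overlap, and the ratio was −0.85 ± 0.27 (edgeR adjusted p = 0.0453). In L4h it was −0.75 ± 0.27 (adjusted p = 0.0692). The Dark call was lost when any Dark total library, or polysome-bound replicate 2 or 3, was left out. The other P0 genes had positive ratios, 0.74 ± 0.27 for AT3G09200 (adjusted p = 0.0813) and 0.67 ± 0.28 for AT3G11250 (adjusted p = 0.113).

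**Figure D4:**
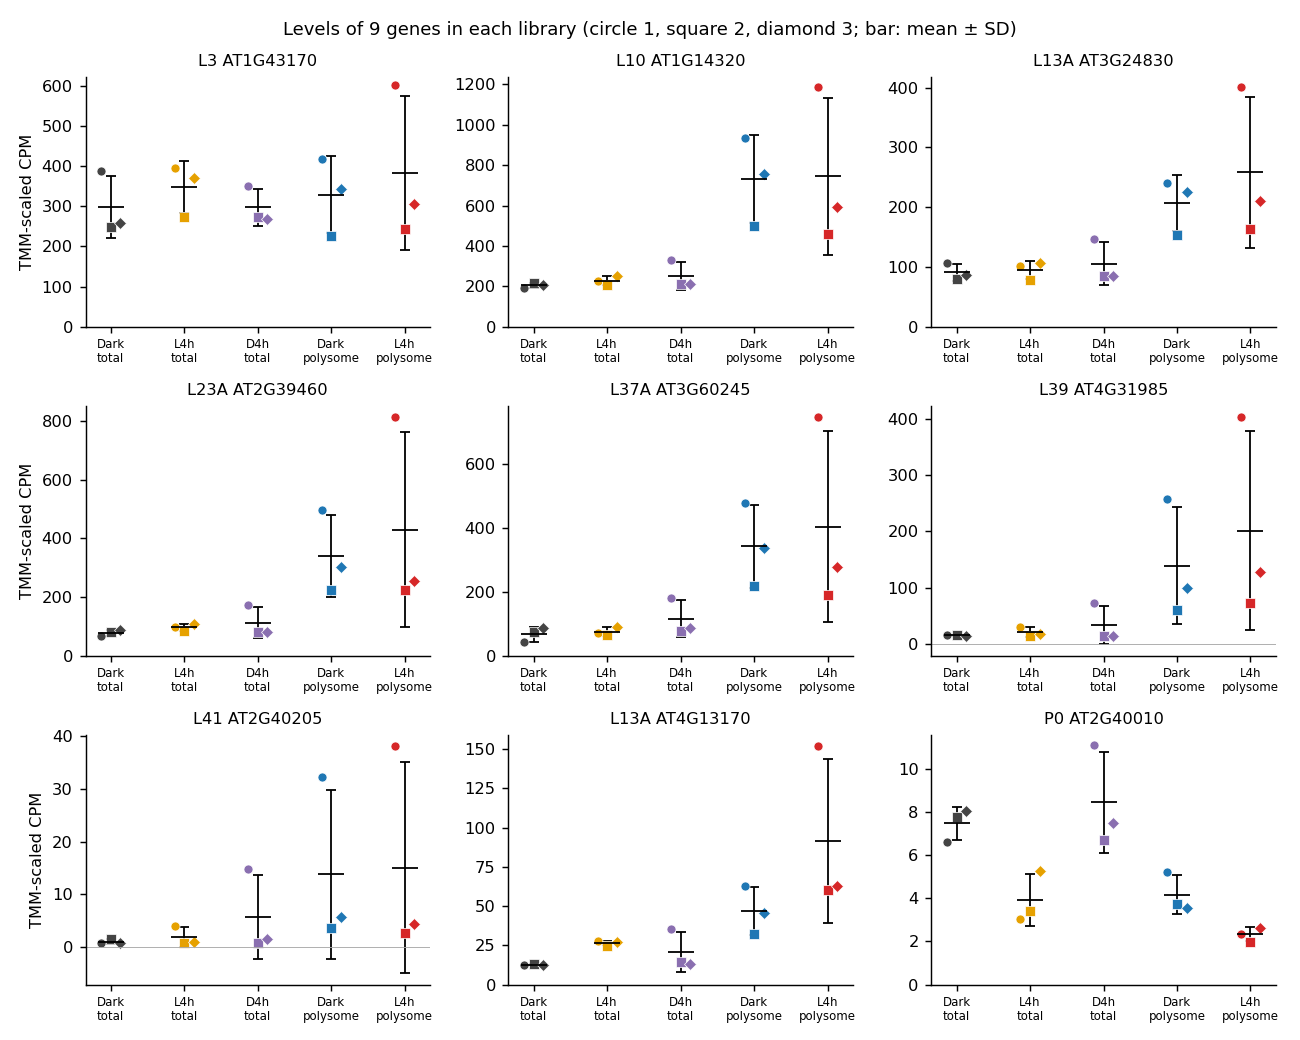
Levels of 9 members in TMM-scaled CPM (linear y axes, separate for each gene) in the 15 libraries, grouped on the x axis as Dark, L4h and D4h total RNA and Dark and L4h polysome-bound RNA. Symbols mark replicate numbers, and bars show the mean ± SD of 3 libraries. L39, L37A, L10 and L23A rise from total to polysome-bound RNA, L3 does not, and P0 gene AT2G40010 falls.

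Few members passed the threshold for a change with 4 h of light, which does not show that the others kept their level. In total RNA, 0 of 46 tested members were higher in L4h than in Dark and 1 was lower (edgeR quasi-likelihood test, adjusted p under 0.05). Over all 21735 genes tested, 12.6% were higher and 10.2% lower. At an unadjusted p under 0.05 there were 2 members and 8242 genes. DESeq2 called 1 member higher and 1 lower, against 3715 and 3408 of all genes. The median member differed by 0.22 log2 units, against −0.02 over all genes, and 38 of 46 were above 0. The median was 0.12 without L4h replicate 3 and 0.33 without L4h replicate 2. The changes ran from −0.92 to 1.07, with 40 members within 0.5 log2 units of 0 and a median SE of 0.28. In polysome-bound RNA, 0 members were higher and 0 lower, against 5.5% and 5.01% of 20975 genes. There, 1 member and 5344 genes had an unadjusted p under 0.05 in edgeR. DESeq2 called 0 members higher and 1 lower, against 2145 and 1861 of all genes. With replicate number as a block, 2 members were higher and 1 lower, against 21.9% and 21.3% of all genes. The median was 0.21 and 36 of 46 were above 0, but it was −0.15 without the libraries numbered 1 and −0.33 without L4h polysome-bound replicate 1. It was near 0 without Dark replicate 2, and 0.45 and 0.34 without L4h replicates 2 and 3.

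**Figure D5:**
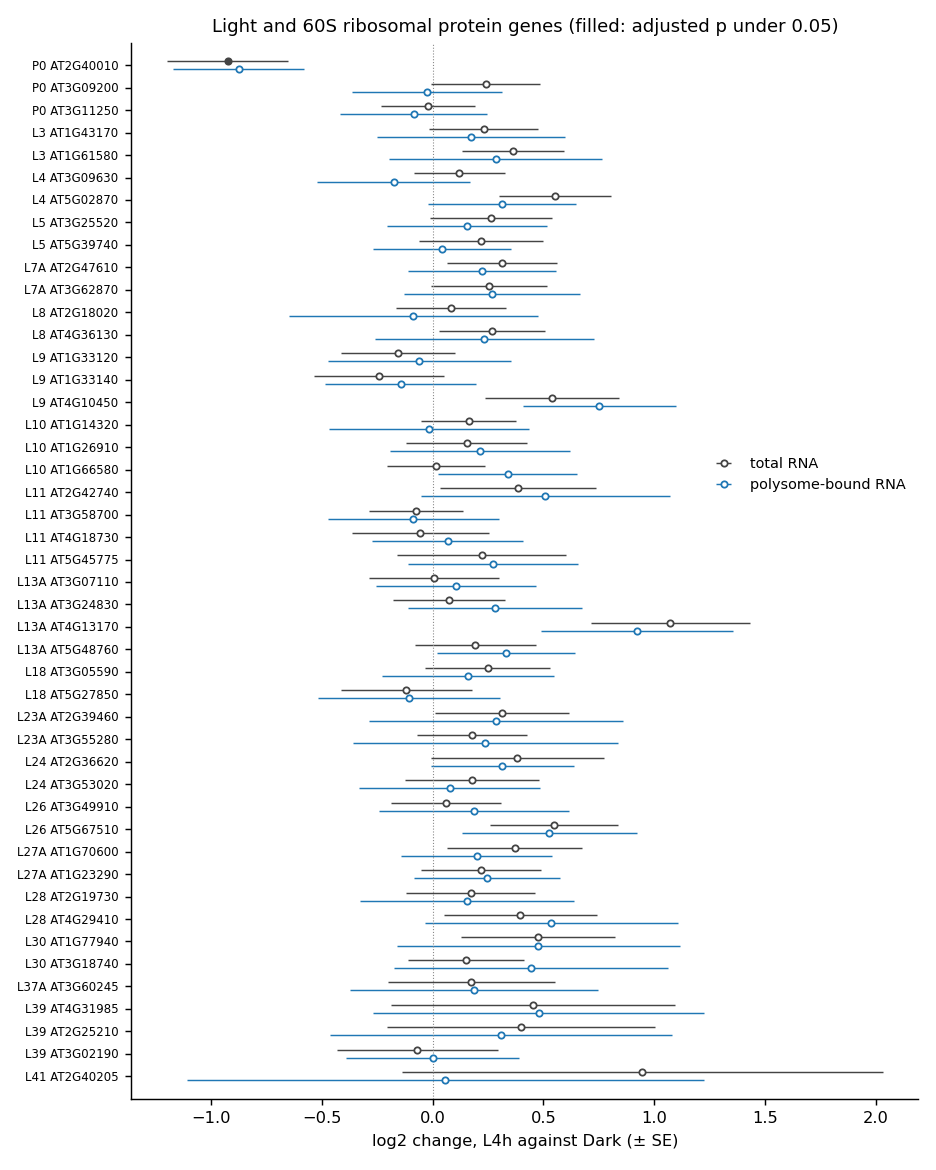
Log2 change of L4h against Dark (± SE, x axis) for each of the 46 tested members (y axis) in total RNA (grey) and polysome-bound RNA (blue). A filled circle marks an adjusted p under 0.05, reached by P0 gene AT2G40010 in total RNA. Most changes lie within 0.5 log2 units of 0, and L13A gene AT4G13170 lies highest, at 1.07 and 0.92.

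The member that fell was P0 gene AT2G40010. It had 6.61, 7.78 and 8.04 CPM in Dark and 3.06, 3.42 and 5.28 CPM in L4h total RNA, with no overlap. The log2 change was −0.92 ± 0.27 (edgeR adjusted p = 0.0429). The call was lost when any 1 of 5 of the 6 libraries was left out, the exception being L4h replicate 3. In polysome-bound RNA it had 5.20, 3.74 and 3.56 CPM in Dark and 2.36, 1.99 and 2.63 CPM in L4h, again with no overlap. The change there was −0.87 ± 0.30 (edgeR adjusted p = 0.116), and with replicate number as a block it passed (adjusted p = 0.0216). Its share of the P0 RPKM in total RNA was 4.50%, 4.95% and 4.66% in Dark and 1.69%, 2.27% and 2.61% in L4h (exact permutation p = 0.1, adjusted p = 0.16). In polysome-bound RNA the share was 1.99%, 1.83% and 1.19% in Dark and 0.643%, 1.05% and 1.26% in L4h, where the groups overlapped (exact permutation p = 0.2, adjusted p = 0.246). The main P0 gene AT3G09200 differed by 0.24 ± 0.25 (edgeR adjusted p = 0.512), and the sum of the P0 genes was 147 ± 16.8 RPKM in Dark and 161 ± 19.4 RPKM in L4h.

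L13A gene AT4G13170 had the largest positive difference with light. It had 12.3, 12.9 and 12.8 CPM in Dark and 27.6, 24.7 and 27 CPM in L4h total RNA, with no overlap. The log2 difference was 1.07 ± 0.36 and missed the threshold (edgeR adjusted p = 0.0615). DESeq2 called it (adjusted p = 0.0182), as did edgeR without the libraries numbered 1 (adjusted p = 0.000644). In that edgeR fit the SE was 0.0988, against 0.36 with all libraries. Its spread was set in part by the remaining D4h libraries, which may not be independent, so this p-value may be too small. AT4G13170 was not called with RLE scaling, without the filter, with limma or with the replicate block. Nor was it called with any 1 library left out (adjusted p = 0.0542 to 0.147 over all these settings). In polysome-bound RNA it had 62.6, 32.1 and 45.6 CPM in Dark and 152, 60.04 and 62.5 CPM in L4h, where the groups overlapped. The difference of 0.92 ± 0.43 did not pass (edgeR adjusted p = 0.239), and with the replicate block it did (0.85, adjusted p = 0.0118). Its share of the L13A RPKM was 7.49%, 8.70% and 8.24% in Dark and 15.4%, 16.4% and 13.6% in L4h total RNA, and 14.5%, 11.4% and 11.1% against 19.8%, 18.5% and 16.1% in polysome-bound RNA. Neither pair of groups overlapped (exact permutation p = 0.1, adjusted p = 0.16 in each). The other L13A genes differed by 0.01 ± 0.29 (AT3G07110), 0.07 ± 0.25 (AT3G24830) and 0.19 ± 0.27 (AT5G48760) in total RNA.

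Further members at the ends of the range did not pass the threshold. In total RNA, L41 gene AT2G40205 differed by 0.95 ± 1.08, L4 gene AT5G02870 by 0.55 ± 0.25, and the L9 genes AT1G33140 and AT1G33120 by −0.24 ± 0.29 and −0.16 ± 0.26. In polysome-bound RNA, L9 gene AT4G10450 differed by 0.75 ± 0.34, L28 gene AT4G29410 by 0.54 ± 0.57, L4 gene AT3G09630 by −0.18 ± 0.34 and L9 gene AT1G33140 by −0.14 ± 0.34. L39 gene AT4G31985 differed by 0.48 ± 0.75 there and passed with the replicate block (0.39, edgeR adjusted p = 0.0437). The mutant of AT1G33140 is known as piggyback2 for its leaf shape.

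Whether the ratio of polysome-bound to total RNA itself differed between L4h and Dark was tested with an interaction term. No member was called, with 0 higher and 0 lower, and over all 21924 genes tested 0% were higher and 0% lower. At an unadjusted p under 0.05 there were 0 members and 115 genes, and DESeq2 called no member. The median difference over the members was 0.05 log2 units, with a median SE of 0.47 for a single gene, and 45 of 46 lay within 0.5 units of 0. This precision does not show that the ratios are equal. L10 gene AT1G66580 (0.38 ± 0.39), L30 gene AT3G18740 (0.35 ± 0.71) and L9 gene AT4G10450 (0.27 ± 0.43) had the highest values, and L41 gene AT2G40205 (−0.82 ± 1.52), L4 gene AT3G09630 (−0.24 ± 0.39) and P0 gene AT3G09200 (−0.21 ± 0.39) the lowest. The median was −0.28 without the libraries numbered 1, and ran from −0.52 (without L4h polysome-bound replicate 1) to 0.26 (without L4h polysome-bound replicate 2) with 1 library left out.

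A further 4 h of darkness gave no called member. Between D4h and Dark, 0 of 46 were higher and 0 lower, and over all 21735 genes 0% were called in either direction. At an unadjusted p under 0.05 there were 0 members and 822 genes, and DESeq2 called no member. The median was 0.41 log2 units and 44 of 46 were above 0. Without the libraries numbered 1 the median was −0.02, and without D4h replicate 1 alone it was 0.04. L41 gene AT2G40205 illustrates this, with 14.8 CPM in D4h replicate 1 and 0.810 and 1.49 CPM in replicates 2 and 3. L39 gene AT4G31985 had 72.9 CPM there and 13.3 and 13.9 CPM in the others, while L3 gene AT1G43170 had 351 CPM against 272 and 269 CPM. Their fitted changes were 2.50 ± 1.13, 1.16 ± 0.65 and −0.01 ± 0.24. L10 gene AT1G66580 had the lowest, −0.13 ± 0.22.

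Between L4h and D4h, 0 members were higher and 1 was lower, against 6.92% and 7.49% of all genes. The lower member was again AT2G40010, at −1.09 ± 0.27 (edgeR adjusted p = 0.0333). Its D4h levels were 11.1, 6.71 and 7.49 CPM, all above the L4h libraries. The call was lost with D4h replicates 2 and 3 taken as 1 library (adjusted p = 0.0629), and when any 1 library other than L4h replicate 3 was left out, for instance D4h replicate 1, adjusted p = 0.054. The median was −0.22, and 0.16 without the libraries numbered 1. It was 0.22 without D4h replicate 1, −0.11 without L4h replicate 2, and −0.38 and −0.39 without D4h replicates 2 and 3. AT4G13170 differed by 0.37 ± 0.35 with all D4h libraries, which held 35.2, 14.1 and 12.8 CPM, and by 1.03 ± 0.12 (edgeR adjusted p = 0.00129) without D4h replicate 1. The D4h group then held only replicates 2 and 3, which may not be independent, so this p-value may be too small. This comparison and the preceding ones share their Dark, L4h or D4h libraries.

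The same comparisons are given for other parts of the translation machinery, without a test of the difference between lists. Of 73 tested genes of other 60S proteins, 65 were higher in polysome-bound RNA in Dark (median 1.75) and 67 in L4h (median 1.89). Of 47 genes of the 40S subunit, 32 and 41 were higher (medians 1.34 and 1.54). Over all genes, 10.6% were higher in Dark and 11.7% in L4h. With light, 0 of the 73 and 2 of the 47 were higher in total RNA and none lower, against 12.6% and 10.2% of all genes. Of the 19 plastid 50S protein genes, 8 (42.1%) were higher in L4h total RNA, with a median of 1.79. Their polysome ratios had medians of 1.57 in Dark (3 called higher, 15.8%, against 10.6% of all genes) and 1.15 in L4h (0 called).

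Of 26 genes for factors that build or regulate the 60S subunit, 2 were higher and 3 lower in polysome-bound RNA in Dark (median −0.09), and 2 were higher and 4 lower in L4h (median 0.13). Of all genes, 10.6% were higher and 9.34% lower in Dark, and 11.7% and 9.15% in L4h. EIF6A, which keeps new 60S subunits from joining 40S subunits, had a ratio of 1.07 ± 0.23 (edgeR adjusted p = 0.0107) and SBDS, which acts in its release, 0.73 ± 0.16 (adjusted p = 0.0107) in Dark. The kinase gene TOR, which promotes growth and translation, had the most negative ratio, −1.78 ± 0.30 (edgeR adjusted p = 0.00414). OLI2, a nucleolar rRNA methyltransferase of the NOP2 family, and the nucleolin gene NUC1 had −1.06 ± 0.22 (adjusted p = 0.00815) and −0.89 ± 0.23 (adjusted p = 0.0212). Over all genes the ratio fell with length, and the part of length in these ratios was not tested. With light, 2 of the 26 rose in total RNA, against 12.6% of all genes. OLI2 rose by 0.60 ± 0.18 (edgeR adjusted p = 0.0437), from 15.8, 16.3 and 20.5 to 31.5, 23.9 and 23.7 CPM. S6K1, the ribosomal protein kinase downstream of TOR, rose by 0.83 ± 0.24 (adjusted p = 0.0375), from 112, 65.8 and 62.1 to 158, 124 and 143 CPM. In polysome-bound RNA, S6K1 rose by 1.35 ± 0.22 (edgeR adjusted p = 0.0126) and was the single gene of the 26 called there.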

How the data were processed

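Total and polysome-bound RNA of the aerial part of seedlings was sequenced as 15 libraries. For each library the authors deposited a table of 33323 genes that holds estimated counts (not normalized, whole in 84.4% to 87.2% of genes at a tolerance of 1e-06), RPKM and gene length. Per the file headers, the RPKM values are per kilobase of that length; the total behind them exceeded the listed sum by 0.981% to 4.34%. Build TAIR10 comes from the submitters' processing notes. The library kit, strand, aligner, counting tool and method of polysome isolation are not given in the sources used here, and the series text speaks of 2 replicates where the labels number 3. The files give no coordinates; names, positions and sequences were read by locus tag from the RefSeq annotation of TAIR10.1, which matched 32835 genes.

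Some marker genes of other tissues are not reported here. The members and all gene lists were chosen with earlier results of these data known. Counts were rounded and fitted with edgeR 4.0.16 in R 4.3.3 (TMM scaling, genes kept by filterByExpr at a count minimum of 10, quasi-likelihood tests, p adjusted over all genes by Benjamini-Hochberg, threshold 0.05). The 9 total RNA libraries were fitted together, as were the 6 polysome-bound libraries and the 12 libraries of Dark and L4h. Each SE was taken as the log2 change divided by the square root of its F statistic. CPM are scaled over all 15 libraries, so group means can differ a little from fitted changes. Differences between libraries carry a pseudocount of 0.5 CPM. Shares used RPKM. The edgeR fits of all 3 sets of libraries were tested on simulated data with 200 changed genes. The fitted changes had the simulated size, but only a minority of the changed genes was called, and none in the polysome-bound set. Unchanged genes were also called, except in the polysome-bound set. The comparisons simulated had far more called genes in the data, which makes the adjusted threshold easier to pass. The share of changed genes called in the simulation therefore need not hold for the data. Intervals cover the spread between libraries, and the limit for a count of 0 (3 counts) covers counting error only.

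Named members are, per comparison, up to 6 called in each direction and the 3 highest and lowest, plus the genes of highest and lowest RPKM of each protein, the 5 longest and shortest members and those with near-identical copies. Other listed genes are the 2 with the largest called light change in each direction. The listed genes named for their polysome ratio, AT1G66580, the shares and the genes named for single libraries were chosen after their values were seen. Alternatives were RLE scaling, DESeq2 1.42.0, testing without the filter, limma 3.58.1 on log2(RPKM + 1) with an RPKM of at least 1 in 3 libraries, replicate number as a block, each library left out, all libraries numbered 1 left out, and D4h replicates 2 and 3 as 1 library. Same-numbered libraries deviated together in Dark and L4h, in total (r 0.387 to 0.596) and polysome-bound RNA (0.562 to 0.695). They also did so between total and polysome-bound RNA in Dark (0.279 to 0.473) and L4h (0.124 to 0.384). The main fits nevertheless held no block, so their p-values do not take this pairing into account. The block was used as an alternative only. It was also run for the comparisons with D4h, where same-numbered libraries gave r of −0.268 to 0.3.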

Additional observations from a re-analysis of the deposited data

How the results depend on the processing

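The members' median polysome ratio stayed above 0 under every alternative, while counts of calls moved. Higher members in polysome-bound RNA numbered 15 to 33 in Dark and 15 to 36 in L4h with 1 library left out. Lower members in Dark numbered 0 without the filter and 0 to 1 with 1 library left out, and those in L4h numbered 1 with DESeq2, with limma, with the replicate block and without the libraries numbered 1. For light in total RNA, higher members numbered 1 with DESeq2 and 2 without the libraries numbered 1, and lower members 0 to 1 with 1 library left out. For light in polysome-bound RNA, the replicate block gave 2 higher and 1 lower, and DESeq2 1 lower. For L4h against D4h, higher members numbered 4 and lower ones 2 without the libraries numbered 1, 0 to 1 in either direction with 1 library left out, and 0 lower with D4h replicates 2 and 3 as 1 library. Total RNA fits without D4h replicate 1 keep only D4h replicates 2 and 3, which may not be independent. Counts of calls from such fits may therefore be too high. The block changed no other count of members by more than 1.5 times. Over all genes it raised the calls for light in polysome-bound RNA from 1154 higher and 1051 lower to 4584 and 4475, for the polysome ratio from 2323 and 2048 to 3659 and 3437 in Dark and from 2566 and 2007 to 3853 and 3354 in L4h, and for L4h against D4h from 1504 higher to 2308. Across all alternatives the higher and lower calls over all genes ran up to 5241 and from 900 to 5283 (L4h against Dark, total RNA, 2734 and 2221 as reported), from 566 to 5306 and 740 to 4940 (L4h against D4h, 1504 and 1628), 318 to 4584 and 360 to 4475 (light in polysome-bound RNA), 1250 to 3659 and 1031 to 3437 (ratio in Dark), and 1413 to 3853 and 1068 to 3354 (ratio in L4h). Spearman's coefficient of ratio against length was −0.70 (Dark) and −0.62 (L4h) without the filter, −0.79 and −0.84 with coding length, −0.76 and −0.82 without AT2G39460, and −0.59 and −0.67 over members of 0.5 kb and more; the last 3 were added after the data were seen. With 1 library left out it ran from −0.686 to −0.659 in Dark and from −0.748 to −0.688 in L4h. The leading genes' median share was 60.1% by RPKM. The cause of these changes was not tested.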
